A study of Arabidopsis thaliana with 48 samples.

Results

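Transcripts of 10 enzymes that make flavonoids and anthocyanins were followed in Arabidopsis thaliana seedlings under salt, high light, heat and their combinations. The genes were chosen by name as steps of a single pathway, and they are 10 of the 32824 genes listed. Flavonoids are built by joining an activated phenolic acid to malonyl units, and the resulting ring system is then closed, hydroxylated and decorated with sugars and acyl groups. CHS (chalcone synthase), CHI (chalcone isomerase), F3H (flavanone 3-hydroxylase), F3'H (flavonoid 3'-hydroxylase) and FLS1 (flavonol synthase) act early and lead to flavonols, which are known as sunscreens and antioxidants of the leaf epidermis. DFR (dihydroflavonol reductase) competes with FLS1 for dihydroflavonols and opens the late branch, in which LDOX (anthocyanidin synthase) makes the coloured core. UF3GT (a xylosyltransferase), UGT75C1 (a 5-O-glucosyltransferase) and 5MAT (a malonyltransferase) then decorate the anthocyanin. In Arabidopsis the early genes are known as targets of MYB11, MYB12 and MYB111, and the late genes as targets of complexes of MYB, bHLH and WD40 proteins.

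The seedlings were bHLH35 mutants or the wild type Col-0, and both genotypes went through the same 8 treatments with 3 libraries each, 48 libraries in all. The stresses were salt (S, 50 mM in the growth medium, so present since germination), high light (HL, 700 µE), heat (HS, 33 °C) and the combinations S+HL, S+HS, HL+HS and S+HL+HS. Light and heat lasted 1.5 h and were given at the age of 7 days, and Control seedlings of that age stood without salt at 150 µE and 21 °C. The sources used here do not give the allele of the mutant, the number of seedlings per library or whether libraries came from separate cultures. The limma p-values below therefore measure the spread between the 3 libraries of a group, which may be technical. That spread was pooled over the 8 treatments of a genotype, or over both genotypes where these were compared. The spread of groups outside a comparison thus enters its p-value.

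The mutated gene, bHLH35 (AT5G57150, a bHLH transcription factor), ran from 3.28 to 14.6 FPKM in mutant libraries and from 20.9 to 95.3 FPKM in Col-0 libraries, so the genotypes did not overlap but transcript of the locus remained in the mutant. Levels are in FPKM, which scales the fragments of a gene by transcript length and library total, and depth ran from 19.4 to 44.2 M (mega) fragments per library with a median of 24.3 M. A floor of 3 fragments lay between 0.0414 and 0.196 FPKM over the 10 genes and 48 libraries, and it covers counting error only. Green tissue markers summed to 20620 to 34392 FPKM per library, and seed storage markers to at most 52.8 FPKM. Epidermal markers summed to 109 to 262 FPKM. Root markers were present in every library, at 702 to 4231 FPKM. In whole seedlings, fewer cells of a type and less RNA per cell cannot be told apart.

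Promoters of 4 of the genes are shown because they hold the G-box CACGTG, a sequence bound by light-signalling factors such as HY5, within 250 bases before the annotated start; CHS and F3H stand for the early steps, DFR and UF3GT for the late ones. The letters come from the RefSeq assembly TAIR10.1, whose nuclear chromosomes are those of TAIR10, the build named in the submitters' processing notes. Each runs 5′ to 3′ on the gene's strand, with capitals marking CACGTG and its core ACGTG on either strand (CACGT is ACGTG read on the opposite strand, and every CACGTG holds ACGTG on both strands).
CHS (chr5:4488226-4488475, plus strand): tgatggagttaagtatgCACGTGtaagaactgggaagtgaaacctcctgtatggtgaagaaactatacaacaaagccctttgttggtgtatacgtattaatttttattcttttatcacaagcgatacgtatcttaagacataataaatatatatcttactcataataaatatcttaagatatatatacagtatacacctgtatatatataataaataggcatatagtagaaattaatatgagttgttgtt
F3H (chr3:19024942-19025191, plus strand): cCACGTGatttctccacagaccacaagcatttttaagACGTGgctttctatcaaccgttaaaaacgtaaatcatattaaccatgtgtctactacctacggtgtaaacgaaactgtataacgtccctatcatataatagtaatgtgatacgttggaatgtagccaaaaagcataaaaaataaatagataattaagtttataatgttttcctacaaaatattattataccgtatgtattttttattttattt
DFR (chr5:17166033-17166282, minus strand): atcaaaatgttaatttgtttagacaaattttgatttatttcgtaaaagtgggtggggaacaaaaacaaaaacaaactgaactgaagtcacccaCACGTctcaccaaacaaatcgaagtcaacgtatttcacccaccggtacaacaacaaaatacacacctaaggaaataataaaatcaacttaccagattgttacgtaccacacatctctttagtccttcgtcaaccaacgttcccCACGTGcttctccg
UF3GT (chr5:21938397-21938646, minus strand): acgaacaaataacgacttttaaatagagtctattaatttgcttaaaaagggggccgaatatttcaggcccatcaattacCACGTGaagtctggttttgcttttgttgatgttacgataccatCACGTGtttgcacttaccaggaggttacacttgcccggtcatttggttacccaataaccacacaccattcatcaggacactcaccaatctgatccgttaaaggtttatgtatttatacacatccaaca
CHS has its G-box at -233 and F3H at -249, counted from the start, while DFR has one at -14 and UF3GT has them at -171 and -128. From 250 bases before to 50 bases after the start, 5 of the 10 genes held CACGTG (3 early and 2 late), against 7.68% of 27443 promoters, and 6 of 10 held ACGTG, against 26.7%. CHI (at 39) and a second site in DFR (at 9) lie after the start, and so does the single ACGTG of FLS1 (at 28). The MYB motifs ACCTAAC (2.88% of promoters) and ACCTACC (1.38%) were found in none of the 10 on either strand. These are matches of letters, not measured binding sites, and the absence of a match says only that these letters are not in this window. LDOX, UGT75C1, 5MAT and F3'H held none of the motifs searched.

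All 10 genes passed the filter on low values in every fit, and all 10 had their highest group mean in S+HL, in the mutant and in Col-0. CHS (AT5G13930, chr5:4488476-4490264, 2 exons) reached 589, 722 and 508 FPKM in S+HL mutants and 698, 740 and 784 FPKM in S+HL Col-0. Its lowest group means, in Control, were 104 FPKM in mutants and 154 FPKM in Col-0. Between the highest and lowest group mean the late genes spanned 12-fold (LDOX in Col-0) to 37.4-fold (UF3GT in Col-0), with DFR at 16.3-fold in mutants and 19.1-fold in Col-0. Among the early genes the span was 4.80-fold (CHS in Col-0) to 9.21-fold (FLS1 in mutants). In Col-0, S+HL libraries of the 5 late genes lay above every library of the next highest treatment, whereas those of the 5 early genes overlapped with HL. In mutants, S+HL overlapped with the next treatment only for F3H and DFR.

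**Figure D1:**
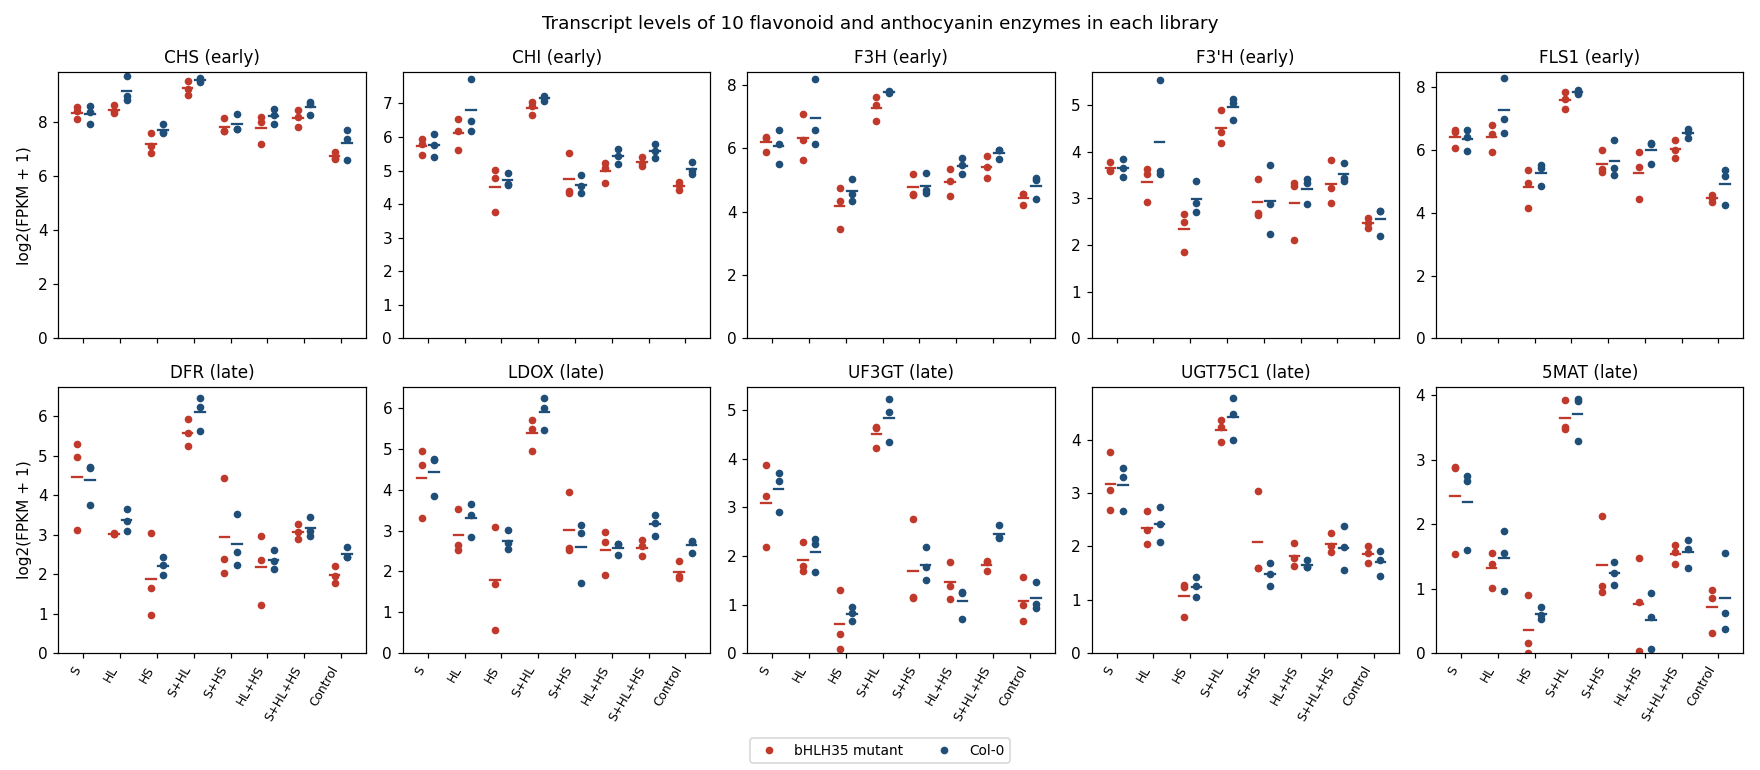
Each panel shows 1 gene, with log2(FPKM + 1) on the vertical axis and the 8 treatments on the horizontal axis; points are libraries (3 per group), bars are means of the plotted values, and mutants stand left of Col-0. S+HL has the highest mean in all 10 panels, and HL with heat or S+HL with heat lies below the same light treatment without heat.

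Salt alone raised the whole pathway in mutants and most of it in Col-0. By limma on log2(FPKM + 1), called at a Benjamini-Hochberg adjusted p under 0.05 over all genes tested, all 10 genes were higher in salt-grown mutants than in mutant Controls, against 19.3% of the 20675 genes tested, and 8 were higher in salt-grown Col-0 than in Col-0 Controls, against 13.6% of 20744. The median log2 change was 1.73 in mutants (1.62 early, 2.01 late), beside 0.13 over all genes, and 1.42 in Col-0 (1.09 early, 1.80 late), beside 0.10. DFR (AT5G42800, chr5:17164093-17166032, 6 exons, minus strand) had 30.1, 38.1 and 7.79 FPKM in salt-grown mutants, against 3.60, 2.41 and 2.86 FPKM in mutant Controls. It had 24.8, 25.1 and 12.5 FPKM in salt-grown Col-0, against 4.39, 5.47 and 4.47 FPKM in Col-0 Controls. Every salt library thus lay above every Control library of its genotype, with the mutant replicate 3 far below its 2 companions, and the log2 change was 2.49 (SE 0.59, limma adjusted p 0.00388) in mutants and 1.86 (SE 0.29, limma adjusted p 0.000214) in Col-0. CHI (AT3G55120, chr3:20430059-20431597, 4 exons, minus strand) and F3'H (AT5G07990, chr5:2560328-2563137, 4 exons) were the genes not called in Col-0, at log2 changes of 0.71 and 1.09 (limma adjusted p 0.0754 and 0.0596), although neither overlapped with its Control libraries. Root markers moved with salt as well: 4 of 4 were called higher in S in each genotype, with summed levels of 2593 to 3710 FPKM in salt-grown mutants, against 1273 to 1470 FPKM in mutant Controls, and 2719 to 4231 FPKM in salt-grown Col-0, against 1671 to 2031 FPKM in Col-0 Controls. Of the 2 epidermal markers, ATML1 was called lower in S in mutants (by a log2 change of -0.39), and ATML1 and PDF1 in Col-0 (-0.34 and -0.45). They summed to 124 to 174 FPKM in salt-grown mutants, against 195 to 242 FPKM in mutant Controls, and to 146 to 176 FPKM in salt-grown Col-0, against 193 to 235 FPKM in Col-0 Controls. The part of either marker list in the salt response of the pathway was not tested.

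The genes called under high light alone were mainly early ones. In HL mutants 4 genes were called higher than in Control (CHS, CHI, F3H and FLS1), against 8.10% of all genes, and no late gene was called; in HL Col-0 7 were called (all 5 early genes, UF3GT and UGT75C1), against 10%. The early median was 1.71 in mutants and 1.94 in Col-0 on the log2 scale, and the late median was 0.84 and 0.71. The scale of log2(FPKM + 1) understates the changes of low genes. Late genes such as UF3GT were low, at Control means of 1.19 FPKM in mutants and 1.23 FPKM in Col-0. FLS1 (AT5G08640, chr5:2803833-2805606, 3 exons) had 109, 89.7 and 59.7 FPKM in HL mutants, against 22.5, 19.4 and 21.0 FPKM in mutant Controls. In Col-0 it had 307, 126 and 91.8 FPKM in HL, against 17.9, 39.9 and 35 FPKM in Control. HL and Control did not overlap in either genotype, with log2 changes of 1.95 (SE 0.33, limma adjusted p 0.000362) in mutants and 2.34 (SE 0.36, limma adjusted p 0.000152) in Col-0. F3'H in mutants, at a log2 change of 0.88, missed the threshold (limma adjusted p 0.0559), as did DFR in Col-0 at 0.84 (limma adjusted p 0.0532). DFR was not called in mutants either, although its HL libraries did not overlap with Control. It had 7.13, 7.06 and 7.22 FPKM in HL mutants, against 3.60, 2.41 and 2.86 FPKM in mutant Controls. The late calls in Col-0 were not stable: UF3GT and UGT75C1 were both lost without HL replicate 1 or 3, without Control replicate 1 or 3, or in a fit of HL and Control alone, which also lost F3'H and gained DFR. DFR was also gained in Col-0 with a pseudocount of 0.1, a mean of at least 5 FPKM, a common sum or median-of-ratios scaling. In mutants a fit of HL and Control alone gained DFR (limma adjusted p 0.00859) and F3'H (limma adjusted p 0.031).

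The HL libraries of Col-0 were not alike. Replicate 1 held 818 FPKM of CHS, 287 of F3H and 45.0 of F3'H, while replicates 2 and 3 held 491 and 449 of CHS, 94.9 and 69.4 of F3H, and 10.9 and 10.4 of F3'H. That library also had the lowest level of the heat-shock chaperone gene HSP101 (AT1G74310), a gene chosen after its values were seen, at 29.7 FPKM beside 49.2 and 128.8 FPKM. In the mutant HL libraries HSP101 stood at 43.4, 60.9 and 149.6 FPKM, and the summed early genes at 682, 635 and 479 FPKM, so that more HSP101 again went with less early transcript. Over the 16 groups the 3 libraries stood in exactly opposite order in 8 groups, in the same order in 1 (Col-0 S+HL) and in neither order in 7. The HL groups of both genotypes are among the 8, and no such count is given for other genes. Because HSP101 was chosen from these same data, the count cannot decide whether the levels are linked. The part of HSP101 in the spread was not tested.

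**Figure D2:**
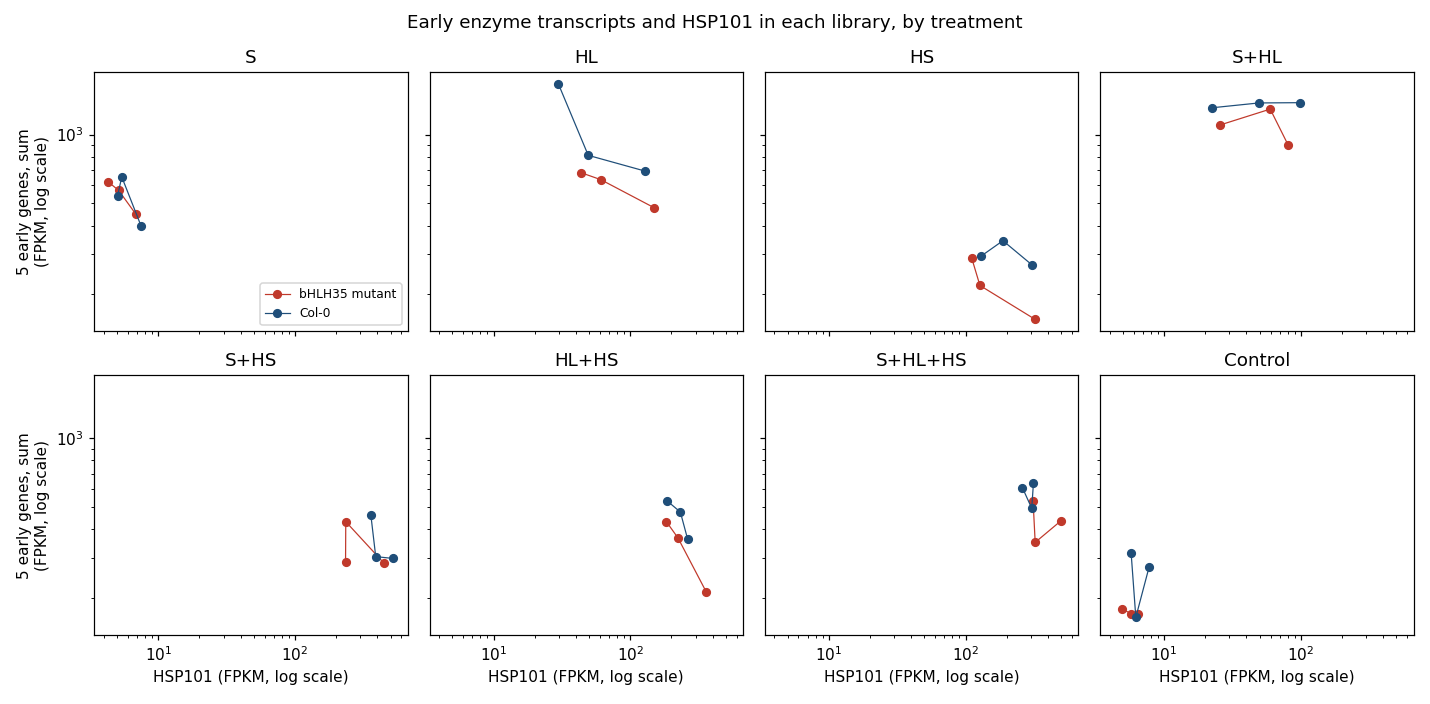
Each panel is a treatment, with HSP101 (FPKM, log scale) on the horizontal axis and the sum of the 5 early genes (FPKM, log scale) on the vertical axis; points are libraries, joined in order of HSP101 within a genotype. The lines of both genotypes fall in HL and in HL+HS, and the S+HL line of Col-0 rises.

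Heat alone called none of the 10 genes in either genotype, by limma, although heat moved 28.9% of all genes in mutants and 30.8% in Col-0 in one direction or the other. At an unadjusted p under 0.05, 1 gene passed in mutants and 0 in Col-0. Here and below, all-gene shares are at the adjusted threshold, so member counts at an unadjusted p cannot be set against them. The member median was -0.18 in mutants and -0.21 in Col-0. UGT75C1 (AT4G14090, chr4:8122188-8123835, 1 exon, minus strand) was the lowest relative to Control, with 0.597, 1.38 and 1.43 FPKM in heated mutants, against 3.00, 2.21 and 2.67 FPKM in mutant Controls; the groups did not overlap, but the log2 change of -0.79 (SE 0.32) missed the threshold at a limma adjusted p of 0.0694. Mutant HS replicate 1 was the lowest of the 48 libraries for all 5 late genes, at 0.954 FPKM of DFR, 0.474 of LDOX and 0.0662 of UF3GT, with 5MAT listed at 0. The UF3GT and 5MAT values lay under the floor of 3 fragments for that library.

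Salt and high light together raised every one of the 10 genes in both genotypes, against 24.8% of all genes in mutants and 23.2% in Col-0. The median log2 change was 2.88 in each genotype, and it was larger for late genes (3.38 in mutants, 3.26 in Col-0) than for early genes (2.51 and 2.40). UF3GT (AT5G54060, chr5:21936746-21938396, 1 exon, minus strand) had 23.7, 24.1 and 17.7 FPKM in S+HL mutants, against 1.98, 1.0 and 0.585 FPKM in mutant Controls. It had 19.4, 30.1 and 36.5 FPKM in S+HL Col-0, against 0.908, 1.77 and 1.02 FPKM in Col-0 Controls. The means were thus 18.4-fold and 23.2-fold higher, with log2 changes of 3.42 (SE 0.42, limma adjusted p 3.67e-06) in mutants and 3.71 (SE 0.26, limma adjusted p 3.16e-09) in Col-0. The marker lists moved here too: 3 of 4 root markers in mutants and 4 of 4 in Col-0 were called higher in S+HL than in Control, and ATML1 was called lower in both genotypes and PDF1 in Col-0 (-0.65 log2 units). Root markers summed to 1538 to 2451 FPKM in S+HL mutants and 2702 to 3012 FPKM in S+HL Col-0, and their part in the result was not tested. Relative to HL without salt, S+HL raised all 5 late genes in both genotypes, at log2 changes of 1.84 to 2.58 in mutants and 2.0 to 2.76 in Col-0. Of the early genes, CHS, F3'H and FLS1 were also called in mutants, 8 of 10 in all (16.4% of all genes), and none in Col-0, 5 of 10 in all (9.29%). The Col-0 count rested on the high HL replicate 1: without it 9 genes were called. The mutant count was 5 without HL replicate 3 or without S+HL replicate 2. On the log2 scale no departure of S+HL from the sum of its single-stress changes was called for any member in either genotype (limma, 0.111% of all genes departed in mutants and 0.246% in Col-0); the largest departures were -0.82 for CHS (SE 0.32) in mutants and 0.89 for DFR (SE 0.42) in Col-0, and 1 gene in each genotype passed at an unadjusted p under 0.05.

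**Figure D3:**
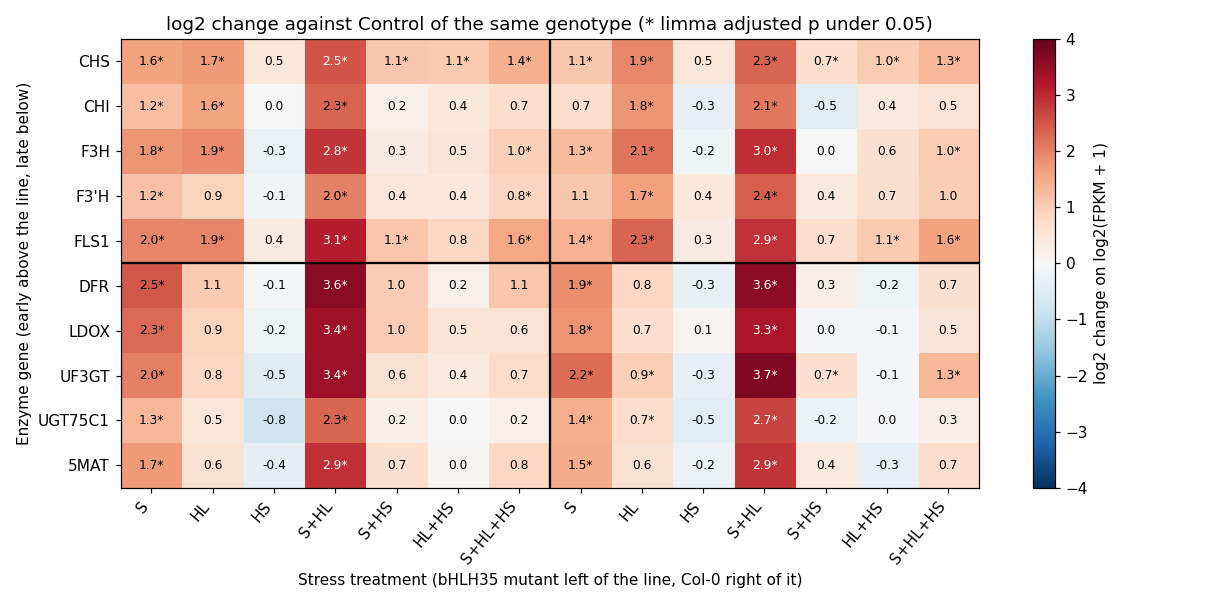
Cells give the log2 change on log2(FPKM + 1) of each gene (rows, early above the line and late below it) in each stress (columns, mutants left of the line and Col-0 right of it) against Control of the same genotype, with an asterisk at a limma adjusted p under 0.05. The S+HL columns are the darkest of each genotype, and the HS columns hold no asterisk.

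Heat added to salt and high light lowered all 10 genes. In S+HL+HS all 10 genes were lower than in S+HL in both genotypes, against 8.15% of all genes in mutants and 5.63% in Col-0, with median log2 changes of -1.99 and -2.04. LDOX (AT4G22880, chr4:12004726-12006209, 2 exons, minus strand) had 4.21, 5.79 and 5.11 FPKM in S+HL+HS mutants, against 51.0, 43.4 and 29.8 FPKM in S+HL mutants. In Col-0 it had 9.48, 8.16 and 6.32 FPKM in S+HL+HS, against 42.7, 63.1 and 74.2 FPKM in S+HL. The groups did not overlap, at log2 changes of -2.79 (SE 0.51, limma adjusted p 0.00252) in mutants and -2.74 (SE 0.31, limma adjusted p 3.39e-05) in Col-0. The late genes as a group fell by a median of 2.51 in mutants and 2.44 in Col-0, and the early genes by 1.58 and 1.43. Leaving out single libraries left 8 to 10 called genes in mutants and 7 to 9 in Col-0. Of the 2 epidermal markers, PDF1 was also called lower in mutants (log2 change -0.63, limma adjusted p 0.0352) and ATML1 was not (-0.0048 log2 units); neither was called in Col-0. The 2 summed to 109 to 123 FPKM in S+HL+HS mutants, against 143 to 179 FPKM in S+HL mutants, and to 128 to 136 FPKM in S+HL+HS Col-0, against 133 to 144 FPKM in S+HL Col-0. Of the 4 root markers, PYK10 was called lower in Col-0 (log2 change -0.62, limma adjusted p 0.0245) and none in mutants. EXPA7 changed by 0.32 in each genotype, not called. COBL9 changed by -0.52 in mutants and -0.29 in Col-0, and CASP1 by -0.017 and -0.056, not called either. Root markers summed to 1104 to 1603 FPKM in S+HL+HS mutants, against 1538 to 2451 FPKM in S+HL mutants. They summed to 1685 to 2190 FPKM in S+HL+HS Col-0, against 2702 to 3012 FPKM in S+HL Col-0. The part of either marker list in the fall of the pathway was not tested.

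Without salt, fewer genes were called lower when heat was added to high light; the difference between these 2 effects of heat was not tested. In HL+HS, against HL, 3 early genes were lower in mutants (F3H, CHI and FLS1; 4.21% of all genes) and 6 genes were lower in Col-0 (CHS, CHI, F3H, FLS1, DFR and UF3GT; 5.38%), and in each genotype all 10 changes were negative. The median change over all genes was also negative, at -0.11 in mutants and -0.092 in Col-0, and the 10 genes varied together. F3H (AT3G51240, chr3:19025192-19026872, 3 exons) had 21.5, 39.5 and 30.5 FPKM in HL+HS mutants, against 135, 75.5 and 48.7 FPKM in HL mutants. It had 43.7, 35.4 and 50.1 FPKM in HL+HS Col-0, against 287, 94.9 and 69.4 FPKM in HL Col-0, at log2 changes of -1.39 (SE 0.34, limma adjusted p 0.0198) and -1.52 (SE 0.36, limma adjusted p 0.0134). These counts rested on single libraries: in Col-0 1 gene was called without HL replicate 1 and 2 without HL+HS replicate 2, and in mutants none was called without HL replicate 1, HL+HS replicate 1 or HL+HS replicate 3, and 1 without HL replicate 2. Of the root markers, PYK10 was called lower in Col-0 (log2 change -0.76, limma adjusted p 0.00906) and none in mutants. COBL9 changed by -0.76 in Col-0 (limma adjusted p 0.11), not called. EXPA7 and CASP1 rose in Col-0 by 0.44 and 0.27, not called, so a sum of root markers does not stand for each of them. Root markers summed to 1228 to 1506 FPKM in HL+HS Col-0, against 1840 to 2868 FPKM in HL Col-0. They summed to 702 to 1086 FPKM in HL+HS mutants, against 1234 to 1316 FPKM in HL mutants. Their part in these changes was not tested.

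In heated seedlings, adding light, or adding salt where light was also high, called few of these genes. Salt added to heat alone (S+HS against HS) was not tested. S+HL+HS against HL+HS called 0 genes in mutants (24.8% of all genes in either direction, and 1 member at an unadjusted p under 0.05) and 2 in Col-0, UF3GT and 5MAT (14.1% of all genes higher, or 5.37% with median-of-ratios scaling). 5MAT (AT3G29590, chr3:11398592-11400332, 1 exon, minus strand) had 2.37, 2.05 and 1.50 FPKM in S+HL+HS Col-0, against 0.475, 0.915 and 0.0507 FPKM in HL+HS Col-0. The value of 0.0507 FPKM lay under the floor of 3 fragments for its library. The Col-0 count was 1 without HL+HS replicate 1 or 3 or without any of the S+HL+HS libraries. HL+HS against HS called 0 in both genotypes (20.3% and 19.5% of all genes in mutants and Col-0; 3 and 2 members at an unadjusted p under 0.05), and so did S+HL+HS against S+HS (2.60% and 2.74%; 0 and 5 members). In mutants HL+HS against HS called 2 genes without HL+HS replicate 1 and 1 without HS replicate 2, and S+HL+HS against HL+HS called 1 without HL+HS replicate 2.

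Against Control, the heat combinations left CHS and FLS1 as the genes most often higher. S+HS called CHS and FLS1 in mutants (28.3% of all genes higher) and CHS and UF3GT in Col-0 (26%). HL+HS called CHS in mutants (10.7%) and CHS and FLS1 in Col-0 (12%), and S+HL+HS called CHS, F3H, F3'H and FLS1 in mutants (23.9%) and CHS, F3H, FLS1 and UF3GT in Col-0 (23.6%). The members called in S+HS in both genotypes, and in HL+HS in mutants, were no larger a share than that of all genes. CHS had 289, 223 and 345 FPKM in S+HL+HS mutants, against 100, 116 and 97.6 FPKM in mutant Controls, and 418, 299 and 403 FPKM in S+HL+HS Col-0, against 94.4, 205 and 164 FPKM in Col-0 Controls, without overlap in either genotype. Several counts moved with 1 library. In mutants S+HS called 1 gene without S+HS replicate 1, HL+HS called 3 without HL+HS replicate 1, and S+HL+HS called 2 without Control replicate 2 or S+HL+HS replicate 1 or 3. In Col-0 S+HS called 0 without Control replicate 1 or S+HS replicate 1 and 1 without Control replicate 3 or S+HS replicate 3, HL+HS called 1 without Control replicate 1 or HL+HS replicate 1 or 3, and HS called 1 without Control replicate 2.

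The combinations with heat fell short of the sum of their single stresses for few genes. In S+HL+HS the changes of CHS and FLS1 were lower than the sum by 2.36 (SE 0.46, limma adjusted p 0.0122) and 2.72 (SE 0.65, limma adjusted p 0.0287) in mutants, 2 of 10 genes against 1.82% of all genes. In Col-0 CHS was lower by 2.17 (SE 0.51, limma adjusted p 0.0296), 1 of 10 against 1.69%. In HL+HS CHS was lower than the sum by 1.42 (SE 0.36, limma adjusted p 0.0181) in Col-0, 1 of 10 against 5.93%, and no member passed in mutants (4.03% in either direction; 4 members at an unadjusted p under 0.05). S+HS gave no call in mutants (0.256%) or in Col-0 (0.231%). Unadjusted p was under 0.05 for 4 and 7 members, a threshold for which no all-gene share is given. All 10 departures in S+HL+HS were negative in both genotypes. The median over all genes was negative too, at -0.075 in mutants and -0.042 in Col-0. The members varied together, so this is not a count of 10 independent genes. These counts moved with single libraries. In mutants S+HL+HS gave 5 without HS replicate 1 and 1 without any Control library, HS replicate 2, S replicate 1 or 2 or S+HL+HS replicate 2; HL+HS gave 4 without HS replicate 1 and 2 without HL+HS replicate 2; and S+HS gave 4 without HS replicate 1. In Col-0 S+HL+HS gave 0 without Control replicate 1 or 3, HS replicate 2, S replicate 1 or 2 or S+HL+HS replicate 2, 2 without HL replicate 2 and 3 without HL replicate 3 or S replicate 3; HL+HS gave 0 without HL replicate 1 or HL+HS replicate 2, 2 without Control replicate 2, HL replicate 2 or HS replicate 1, and 4 without HL replicate 3; and S+HS gave 2 without S+HS replicate 1 and 1 without HS replicate 1.

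The balance of the late and the early branch was followed through DFR and FLS1, which draw on the same substrates. The ratio of DFR to FLS1 FPKM was 0.0882 ± 0.0290 in HL mutants and 0.250 ± 0.0521 in S+HL mutants, against 0.140 ± 0.0180 in mutant Controls (SD, n = 3 each), and the HL and S+HL libraries did not overlap with Control. In Col-0 it was 0.0659 ± 0.0313 in HL and 0.313 ± 0.0939 in S+HL, against 0.170 ± 0.0653 in Control, where HL did not overlap with Control and S+HL did. By a two-sided exact permutation test on the log2 ratio, p was 0.1, the smallest that 3 against 3 libraries allow, for HL in both genotypes and for S+HL in mutants, and 0.2 for S+HL in Col-0. S+HL+HS mutants stood at 0.118 ± 0.00493 and S+HL+HS Col-0 at 0.0903 ± 0.0289, in each case without overlap with Control of the same genotype (exact permutation p 0.1). Over the 14 comparisons of a stress with Control, 8 of which did not overlap, the lowest Benjamini-Hochberg adjusted exact permutation p was 0.175, so none passed the threshold. Salt alone gave 0.277 ± 0.142 in mutants and 0.254 ± 0.0474 in Col-0, overlapping with Control in both. The late genes summed to 12.9% ± 2.23 of the early genes in S+HL mutants and 14.1% ± 3.62 in S+HL Col-0, against 6.06% ± 1.09 and 6.14% ± 2.07 in the Controls of mutants and Col-0.

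**Figure D4:**
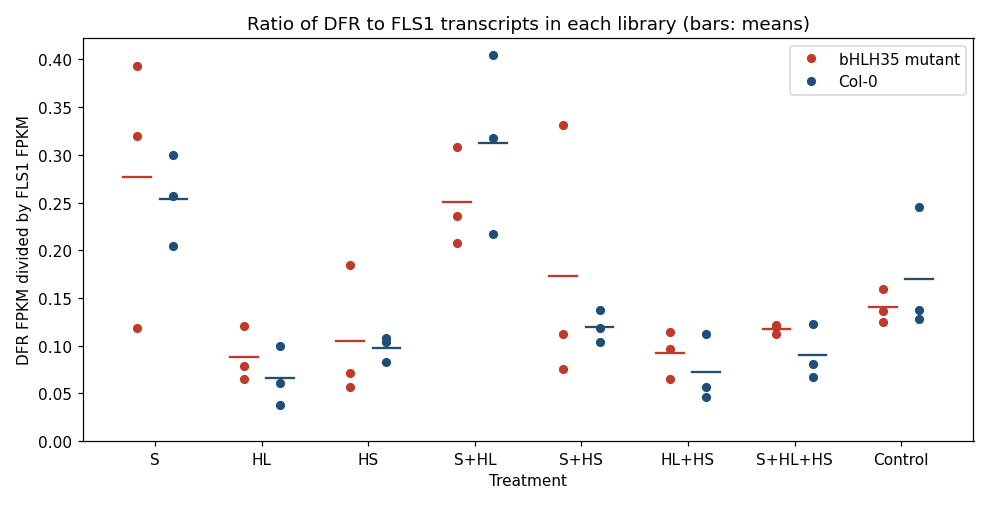
The vertical axis is DFR FPKM divided by FLS1 FPKM, the horizontal axis the 8 treatments; points are libraries (3 per group), bars are means, and mutants stand left of Col-0. In each genotype the 2 highest means are those of S and S+HL and the 2 lowest those of HL and HL+HS.

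No difference between mutants and Col-0 was called for any of the 10 genes. The 2 genotypes were deposited in separate tables, so genotype and table cannot be told apart. The difference between the genotypes in the response to a stress was called for 0 of 10 genes in each of 7 stresses (of all genes 0% for S, 0.0234% for HL, 0% for HS, 0% for S+HL, 0% for S+HS, 0% for HL+HS and 0.00468% for S+HL+HS), and no member passed at an unadjusted p under 0.05. The largest was LDOX in S+HS, at 1.06 log2 units (SE 0.63) more in mutants than in Col-0. In simulated data this test, for HL, recovered 7% of differences of 0.5 log2 units and 68.5% of differences of 1 log2 unit. The simulated differences were set in genes above 5 FPKM in Control. Counts of 0 therefore do not show that the responses were equal. Setting mutant against Col-0 levels within a treatment also called 0 of 10 genes in each, against 0.0234% of all genes in S, 0.417% in HL, 0.0749% in HS, 0.192% in S+HL, 0.0187% in S+HS, 0.136% in HL+HS, 0.0234% in S+HL+HS and 0.206% in Control. At an unadjusted p under 0.05, 4 members passed in HL, 2 in HS, 1 in S+HS and 0 in each of the other treatments. Below the threshold, the direction was much the same in several treatments: all 10 genes were lower in mutants in HL, HS and S+HL, 9 of 10 in S+HL+HS and in Control, and 7 of 10 in HL+HS; under salt alone 3 of 10 were lower, and with salt and heat together 5 of 10. The median differences were -0.52 log2 units in HL, -0.39 in HS, -0.32 in S+HL, -0.36 in S+HL+HS, -0.42 in Control, -0.24 in HL+HS, 0.04 in S and 0.05 in S+HS. The members varied together over the group means (median Pearson's r 0.97 among early and 0.97 among late genes). The direction counts are therefore not of 10 independent genes, and no all-gene direction is given beside them. In HL, CHS stood at 333, 388 and 315 FPKM in HL mutants, against 818, 491 and 449 FPKM in HL Col-0 (log2 change -0.71, SE 0.25, limma adjusted p 0.336). Root markers moved the same way: all 4 were lower in mutants in each treatment except S (2 of 4) and S+HS (3 of 4), none of them called, with 3 of 4 at an unadjusted p under 0.05 in HL. They summed to 1234 to 1316 FPKM in HL mutants, against 1840 to 2868 FPKM in HL Col-0, and to 1273 to 1470 FPKM in mutant Controls, against 1671 to 2031 FPKM in Col-0 Controls. Other marker lists did not move this way. Green tissue markers were higher in mutants for 3 of 4 in S, HL, S+HL and S+HL+HS, and for 4 of 4 in the other treatments. Epidermal markers were higher in mutants for 2 of 2 in HL, S+HL and HL+HS, and for 1 of 2 in the other treatments. None of these markers was called. The part of any marker list in the difference between genotypes was not tested.

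Other genes of the same pathway were also called higher in S+HL, where 24.8% of all genes in mutants and 23.2% in Col-0 were higher and 13.1% and 12.8% were lower. Of 12 genes for flavonoid modification and transport, 11 were tested and all 11 were higher in S+HL than in Control in both genotypes, at a median log2 change of 1.71 in mutants and 1.58 in Col-0. Among them TT19 (also called GSTF12, a glutathione transferase that carries anthocyanins to the vacuole) rose by 3.71 in mutants and 3.27 in Col-0, and fell by 2.63 and 2.55 when heat was added. Of 8 genes of general phenylpropanoid metabolism, which supplies the phenolic acid, 7 were higher and 1 was lower in mutants in S+HL and 6 were higher and 1 lower in Col-0. PAL3 was the lower one. The lignin branch, which draws on the same supply, had 5 of 6 genes higher in each genotype, at medians of 0.74 and 0.70. Of 5 FLS paralogs 3 were tested; all 3 were higher in S+HL in mutants, and 2 were in Col-0, at medians of 1.19 and 1.11. None of the 4 genes of the proanthocyanidin branch, which makes seed coat tannins, passed the filter on low values. Of 17 listed regulators, 7 of the 14 tested in mutants were higher in S+HL and 3 were lower, and 8 of the 15 tested in Col-0 were higher and 3 lower. PAP1, a MYB activator of the anthocyanin branch, rose by 4.13 in mutants and 4.05 in Col-0 in S+HL, MYB12 by 2.34 and 2.40, and MYBL2, a repressor of the anthocyanin branch, fell by 2.13 and 1.98.

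Over the 16 group means, Pearson's r between pairs of members had a median of 0.97 among early genes, 0.97 among late genes and 0.84 between them, as a description over 16 groups that share Controls and libraries. The genes most like the early set among 14092 genes with a mean of at least 5 FPKM were AT1G06000 (UGT89C1, a flavonol rhamnosyltransferase), AT2G23910, UGT84A2 (AT3G21560), AT5G22020 and AT4G23500, at r of 0.98 to 0.96. Most like the late set were GSTF12 (AT5G17220, TT19) at 0.98, AT2G44060, HXK1 (AT4G29130), AT2G38010 and AT5G39570 at 0.95 each.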

How the data were processed

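RNA was sequenced from whole seedlings in 48 libraries, 24 per genotype. Reads were trimmed with Trim Galore 0.6.4 and examined with FastQC 0.11.9, per the labels' protocols, and aligned with HISAT2 2.2.1 to TAIR10, per the submitters' processing notes. The authors deposited FPKM per gene, one table per genotype, per the file headers; the tool that made FPKM and the use of strand are not given in the sources used here. The 2 identifiers listed on 2 lines were summed. Low values moved in steps of 1 fragment, which gave the depths; 92.2% to 96.2% of low values were whole within 0.1. Differences were tested with limma (version 3.58.1, R version 4.3.3) and a variance trend, after taking log2(FPKM + 1), a scale that understates the changes of low genes. A fit used the genes that reached 1 FPKM in 3 or more of its libraries (20675 in mutants, 20744 in Col-0, 21359 in both genotypes). Whole-table fits were tested on simulated data. Members, lists and alternatives were chosen with earlier results of these data known. Named genes are the 10 members, genes of the fixed lists, and the 5 likest per set; HSP101 was added after its values were seen. Alternatives were a pseudocount of 0.1, no filter, a mean of at least 5 FPKM, a common sum, median-of-ratios scaling, no trend, contrasted groups only, a replicate block and leaving out each library.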

Additional observations from a re-analysis of the deposited data

How the results depend on the processing

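Counts of the 10 genes called are given here where an alternative moved them by more than 1.5 times. In mutants, HS against Control called 1 gene (lower) with a pseudocount of 0.1 or with median-of-ratios scaling; HL+HS against Control called 2 with median-of-ratios scaling; S+HL+HS against Control called 9 in a fit of the contrasted groups only; HL+HS against HL called 1 with no filter and 0 with the contrasted groups only; HL+HS against HS called 2 with a pseudocount of 0.1 and 3 with median-of-ratios scaling; and against the sum of single stresses HL+HS gave 1 with a mean of at least 5 FPKM and S+HL+HS gave 4 with median-of-ratios scaling. In Col-0, S+HS against Control called 1 (CHS) with no filter or with median-of-ratios scaling, and with the contrasted groups only it lost CHS and UF3GT and called 1 other gene, CHI, as lower; HL+HS against Control called 1 with no filter; S+HL+HS against Control called 8 with the contrasted groups only; HL+HS against HL called 0 with the contrasted groups only; S+HL+HS against HL+HS called 1 with median-of-ratios scaling; HL+HS against HS called 1 with median-of-ratios scaling or the contrasted groups only; S+HL+HS against S+HS called 1 with a pseudocount of 0.1, a mean of at least 5 FPKM, a common sum, median-of-ratios scaling or a replicate block, and 2 with the contrasted groups only; and against the sum of single stresses S+HS gave 1 with a mean of at least 5 FPKM, HL+HS gave 2 with a pseudocount of 0.1, a mean of at least 5 FPKM or a common sum and 0 with the contrasted groups only, and S+HL+HS gave 0 with no filter or the contrasted groups only. The replicate block moved no other count by more than 1.5 times; same-numbered libraries did not deviate together (correlations from -0.12 to 0.097, 0 of 21 pairs per genotype above 0.1). Leaving out 1 library gave, in mutants, 1 to 2 (S+HS), 1 to 3 (HL+HS) and 2 to 4 (S+HL+HS) against Control, 0 to 3 (HL+HS against HL), 5 to 10 (S+HL against HL), 0 to 1 (S+HL+HS against HL+HS), 0 to 2 (HL+HS against HS), and 0 to 4 (S+HS), 0 to 4 (HL+HS) and 1 to 5 (S+HL+HS) against the sum; in Col-0, 0 to 1 (HS), 0 to 2 (S+HS) and 1 to 2 (HL+HS) against Control, 1 to 6 (HL+HS against HL), 5 to 9 (S+HL against HL), 1 to 2 (S+HL+HS against HL+HS), and 0 to 2 (S+HS), 0 to 4 (HL+HS) and 0 to 3 (S+HL+HS) against the sum. The cause was not tested. The counts for S, HL and S+HL against Control and S+HL+HS against S+HL stayed within 1.5 times under all of these, although the genes behind the HL count in Col-0 changed, and the 0 counts between genotypes stayed at 0. Of 887 single-gene values under other settings 855 kept their call, 32 lost it and 0 reversed; of 705 values with 1 library left out 600 kept it, 105 lost it and 0 reversed. Median-of-ratios scaling moved the median of all genes by -0.18 to 0.17 log2 units, and with it the share of higher among called genes, by more than 10 percentage points in 18 of 26 comparisons with a Control or with a stress of fewer parts. The largest moves were in S+HL+HS against HL+HS, to 45.7% under it from 77.6% as reported in mutants and to 40.2% from 74.8% in Col-0, and in HL+HS against HS in mutants, to 57.8% from 26.2%; the all-gene shares beside the counts depend on scaling to that extent.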
